A study of Mus musculus with 2 samples.

Results

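The glycogen genes described here are 9 rows of the expression tables, taken by gene symbol from a list of pathway members that was drawn up with earlier results of these data known, out of 24346 symbols. They were Ugp2, Gyg, Gys1 and Gbe1 of glycogen synthesis, the phosphorylase isozymes Pygl, Pygb and Pygm of breakdown, Gaa of the lysosome and the regulatory kinase gene Gsk3b. All 9 were listed above 0 in both libraries. RNA was sequenced from Gr-1+ CD11b+ cells, a myeloid gate that takes in neutrophils and monocytes, isolated from BALB/c mice that had been given 3% dextran sulfate sodium (DSS, a polymer that injures the colon) for 6 days. One library was labelled as cells stimulated without ATPγS (control, n = 1) and the other as cells stimulated with it (n = 1). ATPγS is a form of ATP that resists hydrolysis and acts on purinergic receptors. Stimulation lasted 2.5 hours at 100 µM, where the prefix of the unit was a symbol-font character read here as micro. Both groups therefore share the strain and the DSS colitis. How many mice were pooled, their age and the purity of the sort were not stated in the labels.

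Glycogen is a branched polymer of glucose that cells store in the cytosol. UDP-glucose pyrophosphorylase makes the activated sugar, glycogenin starts a chain on itself, glycogen synthase lengthens it and the branching enzyme adds branch points. Glycogen phosphorylase releases glucose 1-phosphate from chain ends, and acid alpha-glucosidase degrades glycogen delivered to lysosomes. Neutrophils are known to hold glycogen and to draw on it when glucose is scarce. The series title concerns a metabolism of myeloid cells that depends on the P2X4 receptor, and the comparison asks here whether the transcripts of these enzymes differed with ATPγS.

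In both libraries the pathway was led by 1 gene of each arm, Ugp2 for synthesis and the liver-type phosphorylase gene Pygl for breakdown, each near 30.0 FPKM (the fragments of a gene scaled by its transcript length and by sequencing depth, so a level that can be compared between genes). Glycogen synthase itself, Gys1, was among the lowest, at 3.44 FPKM in the control and 1.72 FPKM with ATPγS. None of the 9 genes was 2-fold higher or 2-fold lower on the log2(FPKM + 1) scale, among genes whose mean FPKM was 1 or more, whereas 23.7% of all 18311 genes tested passed this fold in either direction. Within the range of mean FPKM of the 9 genes (1.94 to 30.0), 24.7% of 12867 genes passed it. No p-value is given, because each condition had 1 library and the differences have no replicate check.

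The libraries held about 2132000 (control) and 2848000 (ATPγS) fragments, as read from the smallest steps of the values. Of the neutrophil markers, 8 of 9 were in the tables (Ly6g was not analysed here), all above 0, with summed levels of 37146 FPKM in the control and 40013 FPKM with ATPγS. Most of that sum was the calprotectin genes S100a8 and S100a9, and the other 6 summed to 2766 FPKM in the control and 2662 FPKM with ATPγS, with 2 of them higher and 4 lower with ATPγS. Itgam, of CD11b, stood at 112 FPKM in the control and 144 FPKM with ATPγS, and Ly6c2, of an antigen that Gr-1 antibodies recognise, at 70.9 and 63.7 FPKM. Transcripts of other cells were present. The summed level of 6 T and NK cell markers, all above 0 in both libraries, was 246 FPKM in the control and 78.9 FPKM with ATPγS, and that of 5 B cell markers, likewise all above 0, was 1249 and 889.9 FPKM. Most of the B cell sum was Jchain, at 930 and 643 FPKM, and the median of that list was 83.1 and 84.2 FPKM. Monocyte markers, 6 of 6 above 0, summed to 293 and 275 FPKM. Macrophage and dendritic cell markers, 6 of 6 above 0, summed to 2870.02 FPKM in the control and 3183 FPKM with ATPγS, with medians of 30.1 and 56.5 FPKM. Most of that sum was Cd74, at 2647 FPKM in the control and 2825 FPKM with ATPγS. Platelet markers, 3 of 4 above 0 and Gp9 at 0 in both libraries, summed to 44.0 and 87.1 FPKM. Erythroid markers (4 of 4 above 0 in the control and 3 with ATPγS) summed to 733 and 634 FPKM, and epithelial markers (4 and 5 of 5 above 0) to 98.9 and 79.7 FPKM. The part of these cells in the values of the glycogen genes was not tested, and in bulk RNA fewer cells of a type and less RNA per cell cannot be told apart. Olfactory and vomeronasal receptor genes, sensory receptors best known from the nose, give a level for genes not known to serve these cells. Their median over 1452 genes was 1.96 FPKM in the control and 2.2 FPKM with ATPγS, and their 95th percentile was 15.9 and 15.6 FPKM. Of those averaging 1 FPKM or more, 44.3% passed 2-fold in either direction.

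**Figure D1:**
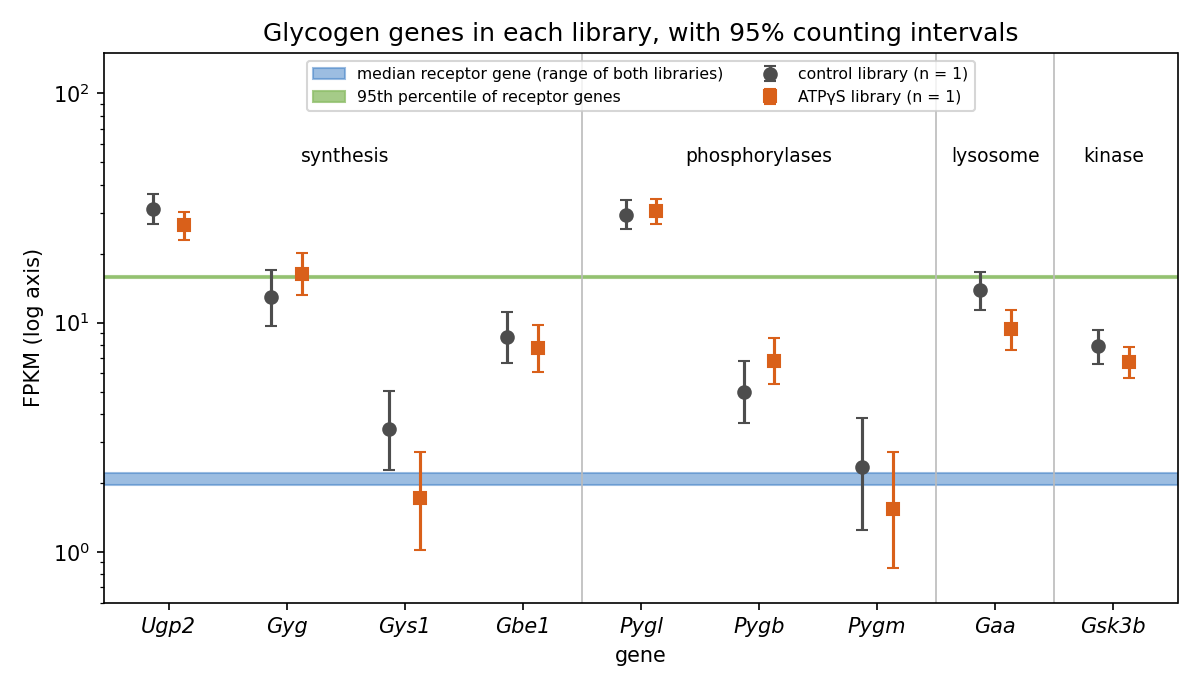
FPKM (log axis) of each glycogen gene in the control (circles) and ATPγS (squares) libraries, 1 library each, with 95% exact Poisson intervals that cover counting error only; bands mark the median and the 95th percentile of the olfactory and vomeronasal receptor genes. Ugp2 and Pygl stand above the upper band in both libraries, and Gys1 and Pygm lie near the lower band.

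Synthesis begins with Ugp2, which makes UDP-glucose for glycogen and for other sugar polymers. Ugp2 (chromosome 11, 21321138 to 21371201, GRCm38) was listed at 31.4 FPKM in the control and 26.6 FPKM with ATPγS, from about 180 and 203 reads. The ATPγS value was 0.846 of the control value, with a counting interval of that ratio of 0.687 to 1.04. That interval, a 95% exact binomial one, covers counting error only and includes no difference. Only 0.895% of the receptor genes reached the level of Ugp2 in the control and 0.964% with ATPγS.

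Gyg, the glycogenin gene (chromosome 3, 20122084 to 20155317), was the synthesis gene with the higher value in the ATPγS library. Its level was 13 FPKM in the control and 16.4 FPKM with ATPγS, a ratio of 1.26 whose counting interval (0.896 to 1.82) includes no difference. Gbe1, of the branching enzyme (chromosome 16, 70313949 to 70569716), stood at 8.61 FPKM in the control and 7.71 FPKM with ATPγS. Its ratio of 0.896 had an interval of 0.629 to 1.28, which also includes no difference.

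Gys1 encodes the synthase of muscle and most other tissues and lies on chromosome 7 (45434844 to 45456619). Its level was 3.44 FPKM in the control and 1.72 FPKM with ATPγS, from about 27 and 18 reads. The control value was thus 2.0-fold the ATPγS value, the largest fold difference in FPKM among the 9 genes. On the log2(FPKM + 1) scale the difference was -0.71, short of 2-fold. Gys1 was the 1 of 9 genes to pass 1.5-fold on this scale, which 44.7% of all genes did in either direction. The counting interval of the ratio (0.259 to 0.940) did not include 1 with the longest coding transcript as the length, but did with the median transcript length (0.222 to 1.03). At this level 36.6% of the receptor genes were as high or higher in the control and 55.1% with ATPγS. Gys1 also overlaps Ruvbl2 on the other strand, and the library preparation does not mark strand, so reads of the shared stretch cannot be assigned to 1 of them. Ruvbl2, a helicase gene, was listed at 7.18 FPKM in the control and 9.27 FPKM with ATPγS.

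The other synthase isozyme, Gys2, best known from liver, was listed at 2.07 FPKM in the control and 3.10 FPKM with ATPγS. Its ratio of 1.5 had a counting interval of 0.685 to 3.16. Gys2 was the lower of the synthase genes in the control, with 37.6% of their summed FPKM, and the higher with ATPγS, with 64.4%. The sum of both was 5.52 FPKM in the control and 4.82 FPKM with ATPγS. In estimated reads, the odds of Gys2 against Gys1 with ATPγS were 2.84 times those of the control. Their exact interval of 1.05 to 8.0 covers counting error only. This comparison was not among the planned ones and used the longest coding transcripts only. At or above the level of Gys2 were 47.7% of the receptor genes in the control and 40.7% with ATPγS. Liver markers were low: 4 of 5 were above 0 in the control and 5 of 5 with ATPγS, with summed levels of 7.66 and 10.5 FPKM, and their part in the Gys2 values was not tested.

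**Figure D2:**
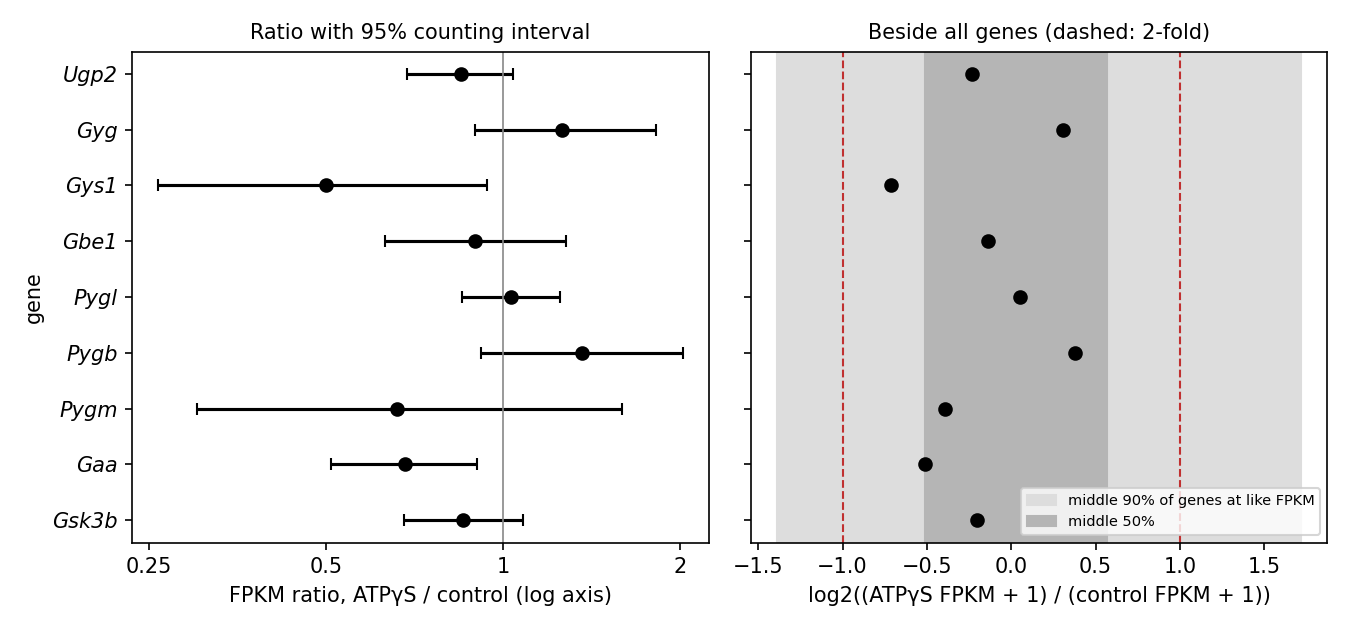
Left, ratio of ATPγS to control FPKM for each glycogen gene (log axis) with its 95% exact binomial interval, which covers counting error only; right, the log2 ratio of FPKM + 1 for the same genes over bands of the middle 50% and 90% of the 12867 genes at like mean FPKM, with dashed lines at 2-fold. The intervals of Gys1 and Gaa lie below 1, and all 9 points lie between the dashed lines.

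The phosphorylases are encoded by 3 genes whose products are named for liver (Pygl), brain (Pygb) and muscle (Pygm), after the tissues where each prevails. Their coding sequences are related, so that short reads of 1 isozyme can resemble another. Over the aligned bases, Pygl and Pygb were 74.9% identical, Pygl and Pygm 74.7%, and Pygb and Pygm 77.4%. The longest identical run was 29 bases for either pair with Pygl and 62 bases between Pygb and Pygm. The most alike stretch of 90 bases (coding positions 839 to 928 in each, from the GENCODE M21 transcripts) is shown because it marks how the isozymes can be told apart by reads. Capitals mark the 12 positions at which they are not all the same.
Pygl: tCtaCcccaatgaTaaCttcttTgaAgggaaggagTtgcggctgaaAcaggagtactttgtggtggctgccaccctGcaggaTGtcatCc
Pygb: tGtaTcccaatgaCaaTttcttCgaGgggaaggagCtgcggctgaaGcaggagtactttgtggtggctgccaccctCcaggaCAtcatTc
Pygm: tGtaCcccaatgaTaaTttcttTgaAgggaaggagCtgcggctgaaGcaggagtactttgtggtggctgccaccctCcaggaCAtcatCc

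Pygl (chromosome 12, 70190811 to 70231488) was the dominant phosphorylase and hardly differed between the libraries. It was listed at 29.6 FPKM in the control and 30.5 FPKM with ATPγS, from about 189 and 260 reads. The ratio was 1.03, with a counting interval of 0.851 to 1.25. The noncoding gene F730035M05Rik, which overlaps the span of Pygl on the other strand, was listed at 1.0 FPKM in the control and 4.0 FPKM with ATPγS.

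Pygb (chromosome 2, 150786735 to 150831758) came next, at 4.99 FPKM in the control and 6.80 FPKM with ATPγS. Its ratio of 1.36 was the highest of the 9 genes, and its interval of 0.917 to 2.02 includes no difference. Pygm (chromosome 19, 6384399 to 6398459) was the lowest of the 9 genes in both libraries, at 2.34 FPKM in the control and 1.54 FPKM with ATPγS. With about 14 and 13 reads, its ratio of 0.660 had an interval of 0.301 to 1.59. Of the receptor genes, 46.7% in the control and 56.2% with ATPγS were at or above Pygm. The muscle markers, in which the creatine kinase gene Ckm and the troponin gene Tnnt3 were at 0 in both libraries, summed to 2.27 FPKM in the control (4 of 7 above 0) and 12 FPKM with ATPγS (5 of 7 above 0), and their part in the Pygm values was not tested.

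As a share of the summed phosphorylase FPKM, Pygl made up 80.1% in the control and 78.5% with ATPγS. Pygb made up 13.5% and 17.5%, and Pygm 6.34% and 3.97%. The order Pygl, Pygb, Pygm was therefore the same in both libraries. In estimated reads, which favour longer transcripts, the exact (Clopper-Pearson) intervals of the Pygl share were 71.4% to 82.2% in the control and 69.6% to 79.0% with ATPγS. Those of Pygb (12.6% to 22.5% and 17.6% to 26.5%) and of Pygm (3.16% to 9.40% and 2.0% to 6.29%) also overlapped between the libraries.

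A stretch of 170 bases before an annotated start of each isozyme gene is shown because the isozymes share an enzyme activity but differ widely in level. The sequences are from RefSeq (GRCm38.p6), 5′ to 3′ on the strand of the gene. Capitals mark matches on either strand to GGGCGG (the GC box), to ACGTG or GCGTG (forms of the core that hypoxia-inducible factors bind), to CACGTG (the E-box, which contains ACGTG), to TATAAA and to TGACGTCA (the cAMP response element). The first lies at chr12:70227684-70227853 (minus strand), the second at chr2:150786565-150786734 (plus strand) and the third at chr19:6384229-6384398 (plus strand). For Pygl the start is that of RefSeq and of 1 of 2 coding transcripts in GENCODE, and the other transcript starts farther upstream, so this stretch lies inside the gene span given above.
Pygl: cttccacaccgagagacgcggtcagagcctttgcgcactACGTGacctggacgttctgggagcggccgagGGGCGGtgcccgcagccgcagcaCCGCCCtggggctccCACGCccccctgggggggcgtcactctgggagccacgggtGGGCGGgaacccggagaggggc
Pygb: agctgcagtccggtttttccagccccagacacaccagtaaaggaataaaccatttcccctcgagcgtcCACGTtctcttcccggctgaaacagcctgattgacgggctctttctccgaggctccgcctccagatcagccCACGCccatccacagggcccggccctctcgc
Pygm: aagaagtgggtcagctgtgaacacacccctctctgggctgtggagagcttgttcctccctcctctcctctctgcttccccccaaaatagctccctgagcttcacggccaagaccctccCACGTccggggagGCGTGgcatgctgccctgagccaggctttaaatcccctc

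With that choice of start, the Pygl stretch held 3 matches to GGGCGG, and those of Pygb and Pygm held 0. Of 32851 RefSeq promoters, 29.8% had a match to GGGCGG in the 170 bases before their start. ACGTG and GCGTG matched once each in all 3 stretches, where 12.3% and 22.4% of the promoters have a match. The G and C content was 74.1% for Pygl and 60.6% for both Pygb and Pygm, against a median of 53.5% over the promoters. Pygl had 17 CpG pairs, Pygb 11 and Pygm 4. TATAAA (in 8.40% of promoters), CACGTG (in 4.67%) and TGACGTCA (in 1.43%) had no match in the 3 stretches. A match is a description of the letters and no evidence of binding.

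**Figure D3:**
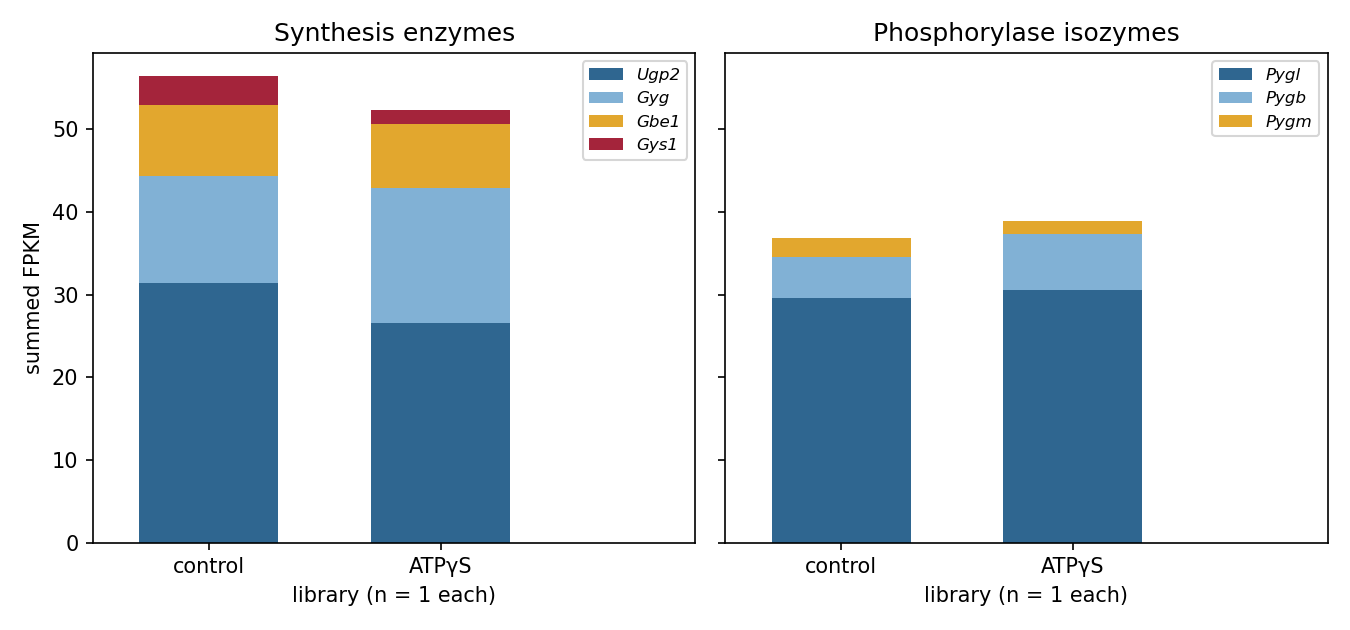
Summed FPKM, stacked by gene and starting at 0, of the 4 synthesis enzymes (left) and the 3 phosphorylase isozymes (right) in each library, 1 library each. Synthesis summed to 56.4 FPKM in the control and 52.3 with ATPγS, and the phosphorylases to 36.9 and 38.9.

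Set against each other, the synthesis enzymes summed to 56.4 FPKM and the phosphorylases to 36.9 FPKM in the control, a ratio of 1.53. In the ATPγS library the sums were 52.3 and 38.9 FPKM, a ratio of 1.35. Most of the synthesis sum came from Ugp2, with 55.7% in the control and 50.7% with ATPγS, while Gys1 gave 6.10% and 3.28%. In estimated reads, the odds of synthesis against breakdown with ATPγS were 0.840 times those of the control, with an exact interval of 0.669 to 1.05 that includes no difference. Between Pygl and Gys1 alone, a pair not among the planned comparisons, Pygl stood 8.58-fold above Gys1 in the control and 17.8-fold above it with ATPγS. In estimated reads, the odds of Pygl against Gys1 with ATPγS were 2.06 times those of the control, with an interval of 1.06 to 4.10. These odds used the longest coding transcripts only. That gap rests on the few reads of Gys1, since Pygl was nearly level. With Gys2 counted, the synthases summed to 5.52 FPKM in the control and 4.82 FPKM with ATPγS. The sums of all 3 phosphorylases were 36.9 and 38.9 FPKM.

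Gaa encodes acid alpha-glucosidase, the enzyme missing in Pompe disease (chromosome 11, 119267887 to 119285454). It was listed at 13.8 FPKM in the control and 9.41 FPKM with ATPγS, from about 107 and 97 reads. The ratio of 0.681 had a counting interval of 0.510 to 0.902 with the longest coding transcript, and of 0.396 to 1.16 with the median transcript length. Gaa and Gys1 were the 2 of 9 genes whose interval lay below 1, and 0 of 9 lay above it. Over 15990 genes with a coding length, 26.0% had an interval below 1 and 24.5% above it, so that 50.5% had an interval without 1 in either direction. Lysosomal markers, 7 of 7 above 0 in both libraries, summed to 3491 FPKM in the control and 3828 FPKM with ATPγS. They included Ctsd, a lysosomal protease gene, at 2632 and 3036 FPKM, Hexa, of a hexosaminidase subunit, at 143 and 173 FPKM, and Lamp1, of a lysosomal membrane protein, at 403 and 304 FPKM. Gaa was thus lower with ATPγS, as was Lamp1, while the sum of the list was higher.

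The 170 bases before the start of Gaa (chr11:119267717-119267886, plus strand) are shown because E-boxes in lysosomal promoters are known targets of the factor TFEB. The stretch held 1 match to CACGTG, which is its own reverse complement and so contains 2 matches to ACGTG, and no match to the other motifs searched. Capitals mark it, and 4.67% of the RefSeq promoters have a match.
Gaa: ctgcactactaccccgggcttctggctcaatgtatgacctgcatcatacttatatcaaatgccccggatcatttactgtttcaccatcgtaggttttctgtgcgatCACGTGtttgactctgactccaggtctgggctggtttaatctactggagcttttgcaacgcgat

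Gsk3b encodes glycogen synthase kinase 3 beta, which inhibits glycogen synthase and has many other substrates. Gsk3b (chromosome 16, 38089001 to 38246084) was listed at 7.87 FPKM in the control and 6.73 FPKM with ATPγS. Its ratio of 0.855 had an interval of 0.678 to 1.08, which includes no difference. The related kinase gene Gsk3a, chosen after its values were seen, stood at 8.49 FPKM in the control and 11 FPKM with ATPγS, with an interval of 0.870 to 1.95.

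The order of the levels was similar in both libraries, and several neighbours did not differ beyond counting error. In the control the order was Ugp2, Pygl, Gaa, Gyg, Gbe1, Gsk3b, Pygb, Gys1 and Pygm. The steps from Pygl to Gaa (2.14-fold, interval 1.68 to 2.74), from Gyg to Gbe1 (1.51-fold, 1.01 to 2.19) and from Gsk3b to Pygb (1.58-fold, 1.10 to 2.26) were larger than counting error, and the other 5 were not. In the ATPγS library the order was Pygl, Ugp2, Gyg, Gaa, Gbe1, Pygb, Gsk3b, Gys1 and Pygm. There the steps from Ugp2 to Gyg (1.62-fold, 1.25 to 2.09), from Gyg to Gaa (1.74-fold, 1.30 to 2.36) and from Gsk3b to Gys1 (3.92-fold, 2.40 to 6.77) exceeded counting error. In both libraries the intervals of the steps used the longest coding transcripts only, so they depend on that choice of length. Gys1 and Pygm closed the order in both libraries, and in the control the step from Pygb to Gys1 was 1.45-fold (0.882 to 2.47).

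Of the 9 log2 ratios, 3 lay above 0 (Gyg 0.31, Pygl 0.05 and Pygb 0.38) and 6 below it (Ugp2 -0.23, Gys1 -0.71, Gbe1 -0.14, Pygm -0.39, Gaa -0.51 and Gsk3b -0.20). Their median was -0.20, beside 0.01 over all genes tested and a median of -0.13 over the 6125 genes whose mean FPKM was 10 or more. The middle 90% of the genes at like FPKM ranged from -1.39 to 1.72, and all 9 glycogen genes lay inside that range. The middle 50% ranged from -0.51 to 0.57, and Gys1 lay outside it.

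The wider set of glycogen genes comprised 52 symbols in the tables, of which 45 averaged 1 FPKM or more and are called measured below. With ATPγS, 2 of these passed 2-fold on the higher side, as did 13.8% of all genes, and 3 on the lower side, as did 9.91% of all genes. Their log2 ratios were split nearly evenly, with 23 above and 22 below 0 and a median of 0.01, beside 0.01 over all genes. The genes past 2-fold were Prkab2 and Nhlrc1 on the higher side and Pgm2, Phkb and Prkacb on the lower side.

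**Figure D4:**
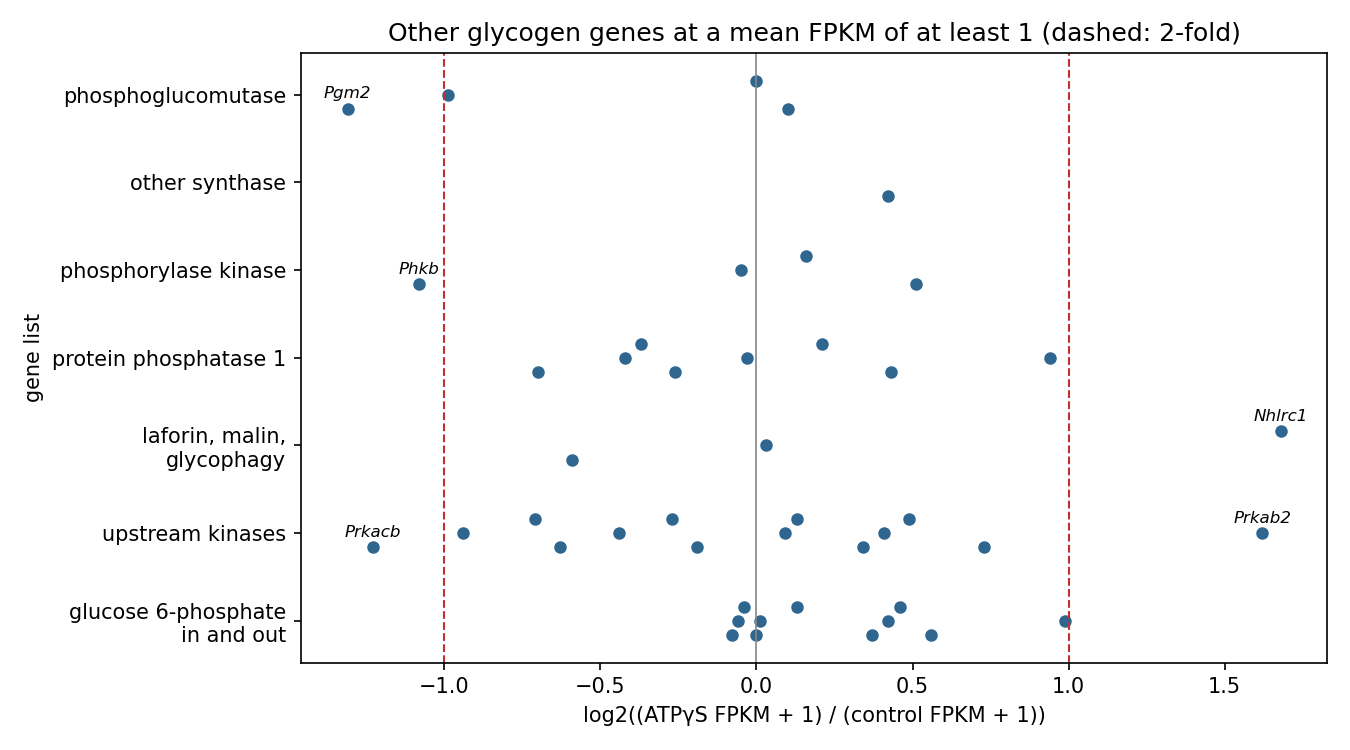
Log2 ratio of FPKM + 1 between the ATPγS and control libraries for each of 45 further glycogen genes, by list (rows, with points staggered for legibility), with dashed lines at 2-fold and names for the genes past it. Points spread to both sides of 0 in most lists, and 5 genes lie past the dashed lines.

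In the list of phosphoglucomutase genes, 1 of 4 measured members passed 2-fold on the lower side and 0 on the higher. Phosphoglucomutase converts between glucose 1-phosphate and glucose 6-phosphate and so joins glycogen to glycolysis. Pgm2 was listed at 14.2 FPKM in the control and 5.11 FPKM with ATPγS, a ratio of 0.361 with a counting interval of 0.228 to 0.539. Of the receptor genes, 6.47% in the control and 26.6% with ATPγS were at or above Pgm2. Pgm1 was listed at 24.0 FPKM in the control and 25.7 FPKM with ATPγS. These symbols have been exchanged between 2 mouse genes in different annotations, and RefSeq lists each as a synonym of the other, so which of them is the main phosphoglucomutase in the tables is not settled here.

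Phosphorylase kinase activates phosphorylase and is built of alpha, beta, gamma and calmodulin subunits. Of its 4 measured genes, 1 passed 2-fold on the lower side and 0 on the higher. Phkb, of the beta subunit shared by the muscle and liver enzymes, was listed at 5.42 FPKM in the control and 2.03 FPKM with ATPγS, with a ratio of 0.374 and an interval of 0.235 to 0.585. At or above the level of Phkb were 25.3% of the receptor genes in the control and 51.1% with ATPγS. The catalytic subunit genes were more abundant and differed little. Phkg1 stood at 16.9 FPKM in the control and 16.3 FPKM with ATPγS, and Phkg2 at 8.97 and 10.2 FPKM.

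Protein phosphatase 1, brought to glycogen by targeting subunits, reverses these phosphorylations. None of its 8 measured genes passed 2-fold. Below the minimum, at a mean of 0.718 FPKM, Ppp1r3f was listed at 1.44 FPKM in the control and 0 with ATPγS, a log2 ratio of -1.28. The catalytic subunit gene Ppp1ca, the most abundant, stood at 214 FPKM in the control and 179 FPKM with ATPγS, and the inhibitor gene Ppp1r2 at 73.4 and 54.6 FPKM. Ppp1r3b, of the targeting subunit best known from liver and chosen after its values were seen, had the highest ratio of the 8. It was listed at 8.67 FPKM in the control and 17.5 FPKM with ATPγS, 2.02-fold in FPKM (interval 1.56 to 2.65) and 0.94 on the log2(FPKM + 1) scale.

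Among laforin, malin and glycophagy genes, 1 of 3 measured members passed 2-fold on the higher side and 0 on the lower. The laforin gene Epm2a was not counted, because its mean of 0.993 FPKM fell just short of the minimum. It was listed at 1.67 FPKM in the control and 0.313 FPKM with ATPγS, from about 12 and 3 reads. Its log2 ratio was -1.03, past 2-fold on the lower side, with a counting interval of the FPKM ratio of 0.0339 to 0.693. Nhlrc1, of the ubiquitin ligase malin, had a listed value of 0 without ATPγS and of 2.21 FPKM with it, a level that 49.8% of the receptor genes reached. Gabarapl1, of an autophagy protein that binds a glycogen receptor, stood at 49.9 FPKM in the control and 32.8 FPKM with ATPγS.

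Among 14 kinase genes upstream of synthase and phosphorylase, 1 passed 2-fold on the higher side and 1 on the lower. Prkab2, of a beta subunit of the AMP-activated kinase that carries a glycogen-binding module, was listed at 3.31 FPKM in the control and 12.2 FPKM with ATPγS, a ratio of 3.70 with an interval of 2.59 to 5.55. Of the receptor genes, 37.4% in the control and 8.06% with ATPγS were at or above Prkab2. Prkacb, of a catalytic subunit of protein kinase A, which switches phosphorylase on through phosphorylase kinase, was listed at 11.7 FPKM in the control and 4.43 FPKM with ATPγS (ratio 0.378, interval 0.268 to 0.527). For Prkacb these shares of receptor genes were 9.5% in the control and 30.3% with ATPγS. The most abundant were the kinase genes Akt1, at 71.4 FPKM in the control and 62.5 FPKM with ATPγS, and Akt2, at 30.2 and 50.9 FPKM. Akt kinases inhibit glycogen synthase kinase 3.

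None of 11 measured genes of glucose 6-phosphate supply and use passed 2-fold, and 7 lay above 0. Ugdh, whose enzyme takes UDP-glucose to UDP-glucuronate and so competes for the product of Ugp2, was the most abundant, at 129.9 FPKM in the control and 131 FPKM with ATPγS. Gpi1, of the isomerase that leads glucose 6-phosphate into glycolysis, stood at 87.2 FPKM in the control and 83.6 FPKM with ATPγS. The median of the list was 0.13.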

How the data were processed

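FPKM were deposited by the authors, 1 value per symbol and 1 library per condition. The submitters' processing notes name TopHat2 2.0.13, Bowtie2 2.2.3, SAMtools 0.1.19, Cufflinks 2.2.1 and the build mm10; its annotation and options: not given in the sources used here. Per the labels' protocols, cDNA was made with SMART-Seq HT and libraries with Nextera, which does not mark strand.

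Ratios were taken as log2(FPKM + 1) of the ATPγS library minus that of the control, a scale that understates differences of low genes. A gene was counted at 2-fold and a mean FPKM of at least 1. Depth was read in olfactory and vomeronasal receptor genes, as the total at which FPKM times coding length most often gave whole reads. At that total 70.1% (control) and 69.2% (ATPγS) of values under 10 reads lay within 0.05 of a whole number. By chance 10.0% would do so at a total fixed in advance. The chance share at the best of many totals is higher and was not computed. Reads per gene were estimated from the longest coding transcript of GENCODE M21 (on GRCm38, to which mm10 is equivalent), so they are approximate. Intervals are 95% exact (Clopper-Pearson or Poisson; for odds, conditional) and cover counting error only, since PCR copies are not independent molecules. The steps were tested on simulated data, which for depth were whole reads at known coding lengths, a setting that the real values met only in part. Isozymes were aligned with mafft 7.526, and scipy was 1.17.1.

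Members were matched by symbol, with no threshold on their values, but the members and lists were chosen with earlier results of these data known. The text names all 9 members and, from the wider lists, each gene past 2-fold and the 2 most abundant; 1 gene of these lists is not reported here. Alternatives were pseudocounts of 0.1 and 5, rescaling to an equal sum or to a median ratio of 0, other minimum levels and folds, read-based sums and other transcript lengths.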

Additional observations from a re-analysis of the deposited data

How the results depend on the processing

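The 9 log2 ratios kept their sign under both rescalings. They also kept it under pseudocounts of 0.1 and 5, but a pseudocount cannot change a sign. Gbe1 came closest to 0 (-0.03) and Gys1 ranged from -0.96 to -0.33. The count of glycogen genes past the threshold stayed at 0, except at 1.5-fold, where 1 (Gys1) was lower, beside 44.7% of all genes in either direction. A pseudocount of 5, a 3-fold threshold, a higher minimum or no filter could not have raised that count. In the wider lists the higher genes, 2 as reported, numbered 4 with a pseudocount of 0.1 and 1 with a pseudocount of 5. Rescaling gave 3 (equal sum) and 4 (median of 0), a minimum mean FPKM of 5 gave 1, and 1.5-fold gave 5. The lower genes, 3 as reported, numbered 5 with a pseudocount of 0.1 and 0 with a pseudocount of 5. Rescaling to a median of 0 gave 2 lower genes, and a minimum mean FPKM of 5 also gave 2. No filter gave 5, 1.5-fold gave 9 and 3-fold gave 0. The shares of all genes at these settings are not given here, except at 1.5-fold in either direction (44.7%). Without those shares, the shifts in these counts say nothing particular to the wider lists. Synthesis over breakdown was 1.11 (control) and 1.08 (ATPγS) with Gaa in the breakdown sum, and 1.10 in estimated reads with ATPγS; Pygb was 21.8% of phosphorylase reads with ATPγS. The causes were not tested, beyond the construction of each alternative. With the median transcript length the intervals of Gys1 (0.222 to 1.03) and Gaa (0.396 to 1.16) include 1. No paired analysis was possible because each condition had 1 library. Depth limits Gys1 and Pygm most, which rest on 13 to 27 reads a library.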

Other observations

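Among the 45 further glycogen genes, 9 had an interval above 1 and 12 below it (over all genes, 24.5% and 26.0%). Spread between replicate libraries was not measured. Of the 12 genes below 1, 9 did not pass 2-fold on the log2(FPKM + 1) scale. They were Pgm2l1, of a glucose 1,6-bisphosphate synthase (6.79 FPKM in the control and 2.93 FPKM with ATPγS), Dyrk1a, of a kinase that can phosphorylate glycogen synthase (13.9 and 6.79 FPKM), Ppp1r3a, of the muscle targeting subunit of protein phosphatase 1 (5.34 and 2.90 FPKM), Ppp1ca, Ppp1cb, Ppp1r2, Gabarapl1, Prkaca and Csnk2a1. Of the 9 genes above 1, 7 did not pass 2-fold. They were the hexokinase genes Hk1 (19.3 FPKM in the control and 26.8 FPKM with ATPγS) and Hk3 (45.8 and 67.7 FPKM), the glucose transporter gene Slc2a1 (63.1 and 81.9 FPKM), Akt2, Prkag1, Ppp1r3b and Slc37a4, of which Slc37a4 rests on only about 8 and 27 reads. Genes that the rule for naming did not give were chosen after their values were seen.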
